A study of Mus musculus with 8 samples.

Results

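A set of 10 genes of the neuromuscular junction was followed in regenerating muscle of mice whose regulatory T cells lacked, or kept, the interleukin-33 receptor ST2. They were the acetylcholine receptor subunit genes Chrna1, Chrnb1, Chrnd, Chrne and Chrng, the clustering genes Musk, Rapsn and Dok7, the esterase gene Ache and the adhesion gene Ncam1. The members were chosen by name, as rows of the deposited table whose platform annotation names exactly that gene. All 10 were found, each with 1 row, among 15007 genes tested. Both groups carried Foxp3-Cre, which is active in regulatory T cells. The flox group was Foxp3-Cre/ST2 flox and the control group Foxp3-Cre/ST2 WT, with 4 samples each, all male C57BL/6 mice. Age is stated as 10 weeks in the sample labels and as 2 months in the series description. Cold injury was given to the tibialis anterior, at the front of the shin, by holding a metal probe cooled in liquid nitrogen against it for 8 seconds, and the whole muscle was taken on day 8. Few cells of such tissue are regulatory T cells, and the deletion itself was not analysed here. Nothing in the labels ties each sample to its own animal, so the p-values describe sample-to-sample spread that could be technical.

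The muscle acetylcholine receptor is the ion channel that motor nerves open to make a fibre contract. Developing and denervated fibres build it with the gamma subunit along their whole surface, and innervated adult fibres replace gamma with epsilon and keep the receptor under the nerve. Nerve-derived agrin acts through Lrp4 on the kinase MuSK, which works with the adaptor Dok7 to gather receptors through the scaffold rapsyn. Muscle that regenerates after injury passes through the developing state again and is reinnervated, so both subunits can be present in the same tissue.

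The upstream sequences of 3 subunit genes are shown. Chrng and Chrne encode the fetal and adult subunits compared below, and Chrna1 encodes a subunit of both receptor forms. Whether the sequences bear on the array levels was not tested. Each line gives the 250 bases before the annotated start, 5′ to 3′ on the gene's strand, from RefSeq on GRCm38.p6. The Chrna1 window lies at chr2:73580339-73580588 on the minus strand, that of Chrng at chr1:87205561-87205810 on the plus strand and that of Chrne at chr11:70619195-70619444 on the minus strand. Capitals mark E-boxes (CANNTG), the motif bound by myogenic factors such as MyoD and myogenin, and the N-box (CCGGAA), known from synaptic genes and bound by the Ets factor GABP.
Chrna1: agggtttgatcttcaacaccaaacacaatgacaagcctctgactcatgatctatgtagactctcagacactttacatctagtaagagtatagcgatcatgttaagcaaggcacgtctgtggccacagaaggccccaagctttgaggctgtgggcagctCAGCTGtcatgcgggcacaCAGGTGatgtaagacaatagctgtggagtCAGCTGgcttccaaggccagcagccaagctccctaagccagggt
Chrng: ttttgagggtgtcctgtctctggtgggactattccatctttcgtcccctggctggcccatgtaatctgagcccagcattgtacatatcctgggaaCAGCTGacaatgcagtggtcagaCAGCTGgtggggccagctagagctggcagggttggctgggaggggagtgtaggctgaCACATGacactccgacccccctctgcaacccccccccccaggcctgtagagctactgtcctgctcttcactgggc
Chrne: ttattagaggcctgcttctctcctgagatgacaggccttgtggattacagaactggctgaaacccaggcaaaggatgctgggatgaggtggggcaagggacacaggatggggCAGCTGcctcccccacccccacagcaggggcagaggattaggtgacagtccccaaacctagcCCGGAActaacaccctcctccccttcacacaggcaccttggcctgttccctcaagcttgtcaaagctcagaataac
On both strands, the windows of Chrna1 and Chrng each held 3 E-boxes, 2 of them with the core CAGCTG, which is itself a CANNTG match, and 0 N-boxes. The Chrne window held 1 E-box, with the core CAGCTG, and 1 N-box. Of 32851 windows of this length, 66.2% held at least 1 CANNTG, 12.2% held 3 or more, 13% held CAGCTG and 12% held CCGGAA. The Chrnb1 and Musk windows also held 3 E-boxes each, that of Ache held 1, and the first of the Dok7 pair held 1 and the other 0. Such matches describe the letters and do not show binding. Chrnd, Rapsn and Ncam1 had no window in the table used.

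Before the results, flox array 1 is singled out, for its levels of the members only. It had the lowest log2 level of Chrng, Chrna1, Ncam1 and Dok7 among all 8 arrays and the highest of Chrne. Values without it or without other single arrays are given beside many of the main ones. Median intensity lay between 184.9 and 189.2, and the normalization itself makes the arrays' distributions alike. Pairs of arrays correlated across genes at r = 0.976 to 0.995. Over all genes, flox array 4 weighed more on the fit than flox array 1. Genes at a limma unadjusted p under 0.05 numbered 569 with all arrays, 577 without flox array 1 and 3003 without flox array 4. Fibre markers were high, with Acta1 at a log2 level of 13.8 and Ckm at 13.7 in both groups. Levels of different genes come from different probes and are not compared with each other. All values are log2 intensities, and differences are flox minus WT.

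For none of the 10 genes did flox and WT arrays lie apart. The mean was higher in flox for 5 genes (Chrna1, Chrnb1, Chrnd, Musk and Ncam1) and lower for 5 (Chrne, Chrng, Rapsn, Ache and Dok7), where 48.8% of all genes were higher and 51.2% lower. The count of genes higher ranged from 5 to 7 when each array was left out in turn. In limma 0 members passed 0.05 after Benjamini-Hochberg adjustment over all genes (smallest adjusted p 0.912), beside 0% of all genes. With no adjustment 0 members had p under 0.05 (smallest 0.192), beside 3.79% of all genes, and the groups overlapped for all 10, where 1.97% of all genes had groups apart. The median difference of the members was 0.03, against -0.0025 over all genes. Single arrays moved that median. Leaving out flox array 1 gave 0.09, leaving out flox array 4 gave -0.02 and leaving out WT array 2 gave -0.01. The largest difference was 0.11, or 1.08-fold. Over the 10 genes the 95% intervals ran from -0.27 to 0.33, the lower bound being a fold of 0.832, so differences of that size are within what these arrays allow. In whole muscle, fewer cells of a type and less RNA per cell cannot be told apart.

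**Figure D1:**
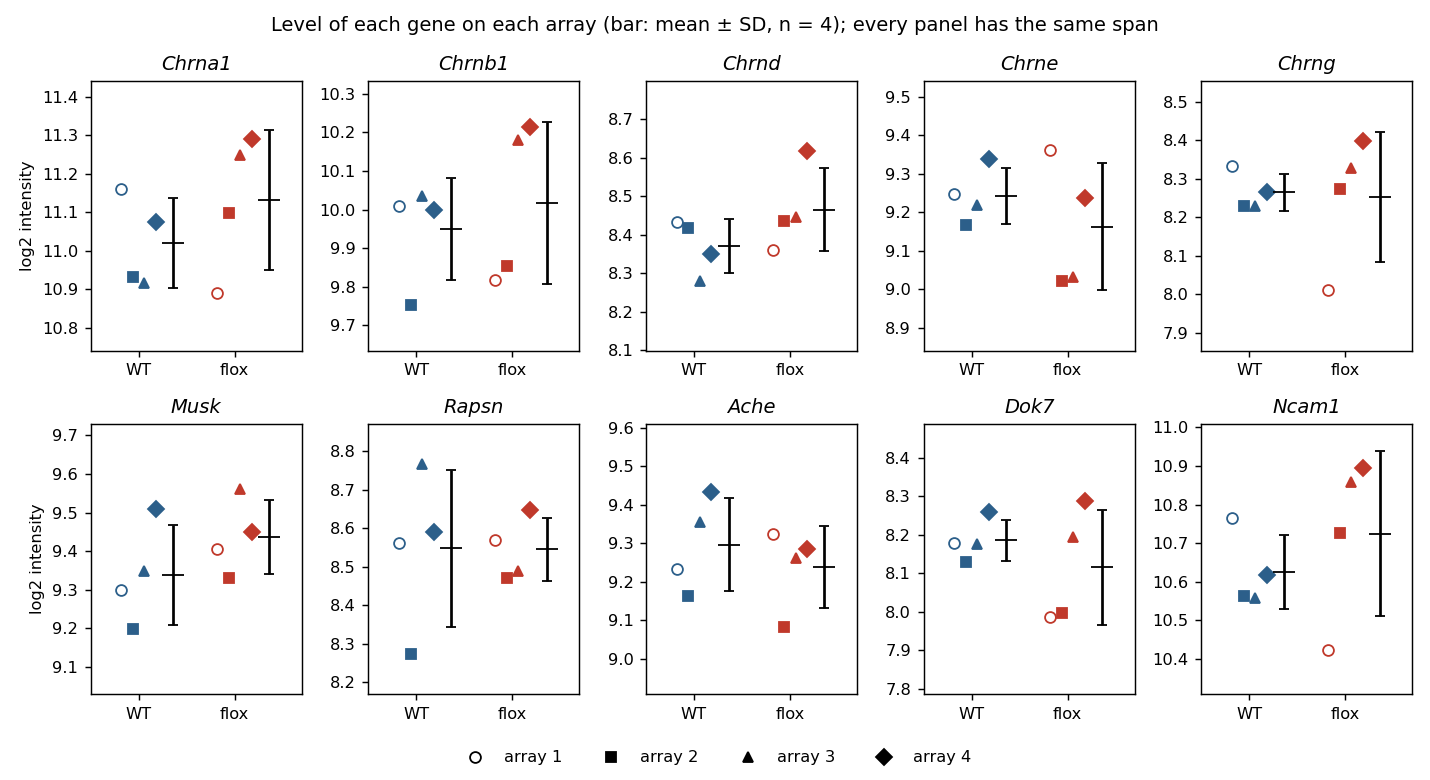
Log2 intensity of each gene on each array, WT in blue and flox in red, with symbols for the number in the sample's title and the mean ± SD (n = 4) beside each group. All panels span the same number of log2 units; the groups overlap in every panel, and flox array 1 (open circle) is lowest for Chrna1, Chrng, Dok7 and Ncam1.

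The shared receptor subunits come first. Chrna1 encodes the alpha subunit that carries the acetylcholine binding site. The flox arrays, numbered 1 to 4, had log2 levels of 10.89, 11.10, 11.25 and 11.29, and the WT arrays had 11.16, 10.93, 10.92 and 11.08. Flox arrays 3 and 4 were above every WT array, and flox array 1 was below them all. The means were 11.13 ± 0.18 in flox and 11.02 ± 0.12 in WT (SD, n = 4 each), a difference of 0.11 (SE 0.09; limma adjusted p 0.912). Without flox array 1 the difference was 0.19 (SE 0.08; limma adjusted p 0.9998, unadjusted 0.0401). Flox array 1 was singled out for this level among others, so the fit without it is a description. Without flox array 4 the difference was 0.06.

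Chrnb1, the beta subunit, was at 9.82, 9.85, 10.18 and 10.21 on the flox arrays and at 10.01, 9.75, 10.04 and 10.00 on the WT arrays. Flox arrays 3 and 4 were high and flox arrays 1 and 2 low, with WT array 2 the lowest of all. The difference was 0.07 (SE 0.11; limma adjusted p 0.931), and it became 0.0014 when flox array 4 was left out and 0.13 when flox array 1 was. Chrnd, the delta subunit, was at 8.36, 8.44, 8.45 and 8.62 on the flox arrays and at 8.43, 8.42, 8.28 and 8.35 on the WT arrays. Its 3 highest levels were on flox arrays 4, 3 and 2, and flox array 1 lay among the WT arrays. The difference was 0.10 (SE 0.07; limma adjusted p 0.912), and 0.04 without flox array 4.

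**Figure D2:**
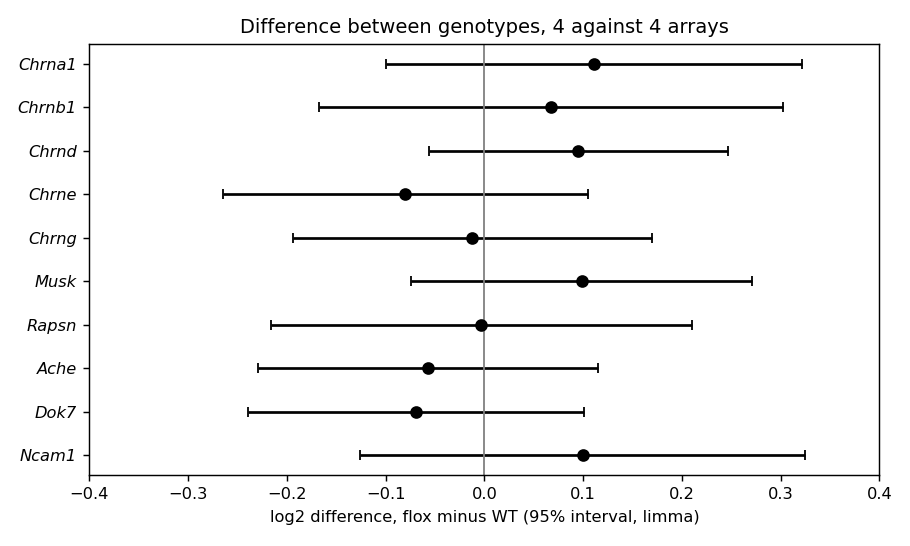
Log2 difference between flox and WT for each gene, with the 95% interval from limma (4 against 4 arrays). Every interval includes 0; the differences run from -0.08 for Chrne to 0.11 for Chrna1.

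The fetal and adult subunits were set against each other next. Chrng, the gamma subunit of fetal and denervated muscle, was at 8.01, 8.27, 8.33 and 8.40 on the flox arrays and at 8.33, 8.23, 8.23 and 8.27 on the WT arrays. The WT arrays lay close together, and the flox arrays spread to both sides of them, with flox array 1 well below. The means were 8.25 ± 0.17 and 8.26 ± 0.05 (SD, n = 4 each), a difference of -0.01 (SE 0.08; limma adjusted p 0.986) that was 0.07 without flox array 1. Without flox array 4 the difference was -0.06. Chrne, the epsilon subunit of the adult synapse, was at 9.36, 9.02, 9.03 and 9.24 on the flox arrays and at 9.25, 9.17, 9.22 and 9.34 on the WT arrays. Flox arrays 2 and 3 were below every WT array, and flox array 1 was above them all. Its means were 9.16 ± 0.17 and 9.24 ± 0.07, a difference of -0.08 (SE 0.08; limma adjusted p 0.912), or -0.15 (SE 0.07; limma adjusted p 0.9998) without flox array 1.

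The log2 level of Chrng minus that of Chrne gives 1 value per array, in which only differences between arrays can be read. It was -1.35, -0.75, -0.70 and -0.84 on flox arrays 1 to 4 and -0.91, -0.94, -0.99 and -1.07 on WT arrays 1 to 4. Flox arrays 2 to 4 lay above every WT array and flox array 1 far below, so the flox values spread over 0.30 (SD) and the WT values over 0.07. The group means differed by 0.07 (SE 0.15; exact two-sided permutation p = 0.714, smallest possible 0.0286). Without flox array 1 they differed by 0.21 (SE 0.05). That array was singled out for these very values, so this difference is a description with no test. Leaving out flox array 3 gave -0.0014, and leaving out flox array 2 gave 0.01. The sign and size of the shift between gamma and epsilon depended on which single flox array was left out.

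**Figure D3:**
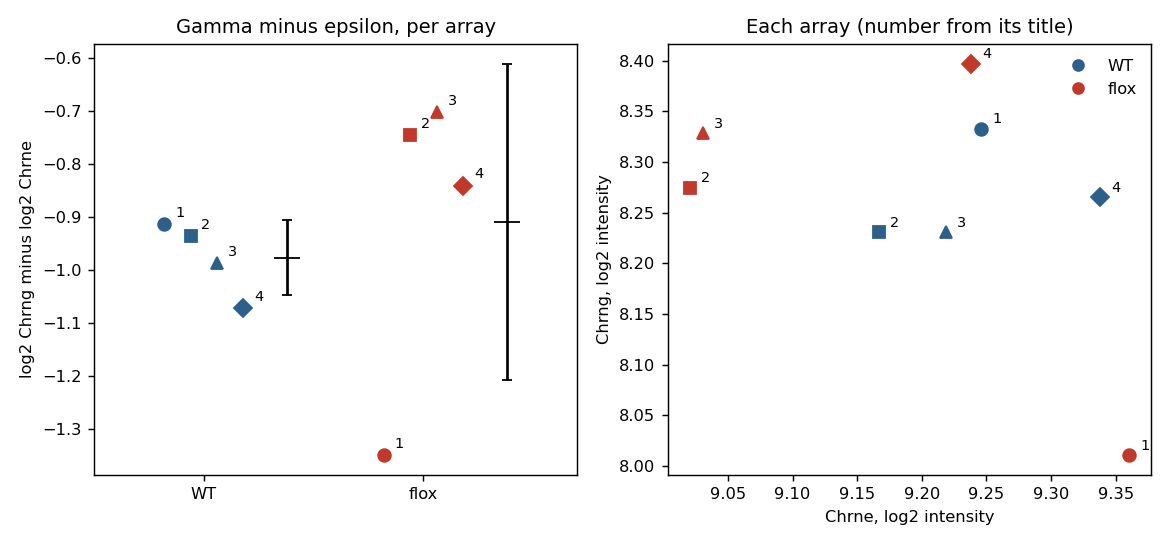
Left, log2 Chrng minus log2 Chrne on each array, with the group mean ± SD (n = 4); right, Chrng against Chrne, in log2 intensity, on the same arrays. WT in blue and flox in red, numbered as in the sample titles; flox array 1, at -1.35, has the lowest Chrng and the highest Chrne of the 8 arrays, and the other flox arrays lie above the WT arrays on the left.

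Several gene sets differed among the flox arrays, and not all of them were extreme on flox array 1. The mean of the 10 regenerating fibre genes, such as the embryonic and neonatal myosins Myh3 and Myh8, was -0.26 there relative to the 8-array mean. It was 0.16, 0.18 and 0.12 on flox arrays 2 to 4. The WT arrays had -0.10 to 0.03. The mean of the 10 macrophage genes was 0.34 and 0.40 on flox arrays 1 and 2, 0.03 on flox array 3 and -0.42 on flox array 4. The WT arrays had -0.18 to 0.06. The 113 olfactory receptor genes tested, a family best known for odour sensing, had a median on flox array 1 of -0.21, against 0.17 on flox array 4. The WT arrays had 0.0023 to 0.08. The 500 genes nearest to Chrng in level had a median of 0.05 on flox array 1, where Chrng itself was -0.25. The part of these differences in the Chrng and Chrne values was not tested.

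Of the clustering genes, Dok7 had its extremes on the same arrays as Chrng, and Musk and Rapsn did not. Musk, the receptor kinase that starts receptor clustering, was at 9.40, 9.33, 9.56 and 9.45 on the flox arrays and at 9.30, 9.20, 9.35 and 9.51 on the WT arrays. The difference was 0.10 (SE 0.08; limma adjusted p 0.912), the ranges overlapped, and leaving out single arrays gave 0.05 to 0.16. Rapsn, the gene of the scaffold rapsyn, was at 8.57, 8.47, 8.49 and 8.65 on the flox arrays and at 8.56, 8.27, 8.77 and 8.59 on the WT arrays. Here the WT arrays held both the lowest and the highest level, and the difference was -0.0030 (SE 0.10; limma adjusted p 0.996). Dok7, the adaptor that activates MuSK, was at 7.99, 8.00, 8.19 and 8.29 on the flox arrays and at 8.18, 8.13, 8.18 and 8.26 on the WT arrays. Flox arrays 1 and 2 were below every WT array and flox array 4 above them. The difference was -0.07 (SE 0.08; limma adjusted p 0.915), or -0.03 without flox array 1 and -0.13 without flox array 4.

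Ache encodes acetylcholinesterase, which clears the transmitter from the synapse. Its level was 9.32, 9.08, 9.26 and 9.29 on the flox arrays and 9.23, 9.16, 9.36 and 9.43 on the WT arrays. The ranges overlapped, with flox array 2 the lowest, and the difference was -0.06 (SE 0.08; limma adjusted p 0.925; -0.0058 without flox array 2). Ncam1 encodes a cell adhesion molecule that marks regenerating and denervated fibres, satellite cells and Schwann cells. It was at 10.42, 10.72, 10.86 and 10.90 on the flox arrays and at 10.76, 10.56, 10.56 and 10.62 on the WT arrays. Flox arrays 3 and 4 were above every WT array and flox array 1 below them all. Its difference was 0.10 (SE 0.10; limma adjusted p 0.912), and 0.20 without flox array 1 (SE 0.07; limma adjusted p 0.9998, unadjusted 0.0219). Without flox array 4 the difference was 0.04. Ncam1 and Chrna1 were the 2 members with an unadjusted p under 0.05 in any fit that left out an array, and both only without flox array 1, where 3.84% of all genes had such a p. Flox array 1 was singled out for its low levels of these genes among others, so leaving it out raises both differences. These p-values and their count are a description with no test.

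Chrna1, Ncam1 and Chrng varied together over the 8 arrays. Of 45 pairs of members, 3 passed 0.05 after Benjamini-Hochberg adjustment over the pairs, namely the 3 among these genes. The share passing among pairs of all genes was not computed, so the count and the p-values of the pairs are a description. Among the 15006 other genes, 113 had a higher r with Chrng than Ncam1 did, and 451 than Chrna1 did. Chrna1 and Ncam1 had the same order over the 8 arrays (Pearson r = 0.969, exact permutation p = 2.48e-05, adjusted 0.00112; Spearman rho = 1, exact permutation p = 4.96e-05, adjusted 0.00223). These p-values are the smallest that 8 arrays can give. Among 15006 other genes, 0 had a higher r with Chrna1 than Ncam1 did, and 1 had a higher r with Ncam1 than Chrna1 did. Without the arrays farthest from the Chrna1 median, flox arrays 1 and 4, r was 0.961.

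Chrng followed Ncam1 (r = 0.908, exact permutation p = 7.44e-05, adjusted 0.00167; rho = 0.976, adjusted p 0.00595) and Chrna1 (r = 0.832, exact permutation p = 0.00146, adjusted 0.0219; rho = 0.976, adjusted p 0.00595). Without flox arrays 1 and 4, the farthest from the median, r was 0.935 and 0.947. With each group's mean removed, the 3 pairs had r of 0.928 to 0.982. The shared subunits had r = 0.777 (Chrnb1) and 0.776 (Chrnd) with Chrna1, and neither pair passed the adjustment (adjusted exact permutation p 0.182 and 0.128). Chrnd is the neighbour of Chrng on chromosome 1 in the RefSeq gene order, and the pair had r = 0.612 (adjusted exact permutation p 0.407). These arrays share the normalization, so values of different genes on an array are not independent measurements of the tissue.

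Chrne stood outside this group, and so did Rapsn and Ache. With Chrna1, Ncam1 and Chrng, Rapsn had r of 0.074, 0.035 and 0.051, and Ache had r of -0.118, -0.258 and -0.180. The r of Chrne was -0.365 with Chrna1, -0.519 with Ncam1 and -0.438 with Chrng (adjusted exact permutation p 0.578, 0.430 and 0.576). The correlation of Chrne with Chrng rested on flox array 1, without which r was 0.0085. The highest r of Chrne among the members was with Ache (r = 0.724, exact permutation p = 0.0417, adjusted 0.182; rho = 0.667, adjusted p 0.267). That pair did not pass the adjustment. Rapsn and Ache had r = 0.648 (adjusted exact permutation p 0.279; rho = 0.833, adjusted p 0.115).

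**Figure D4:**
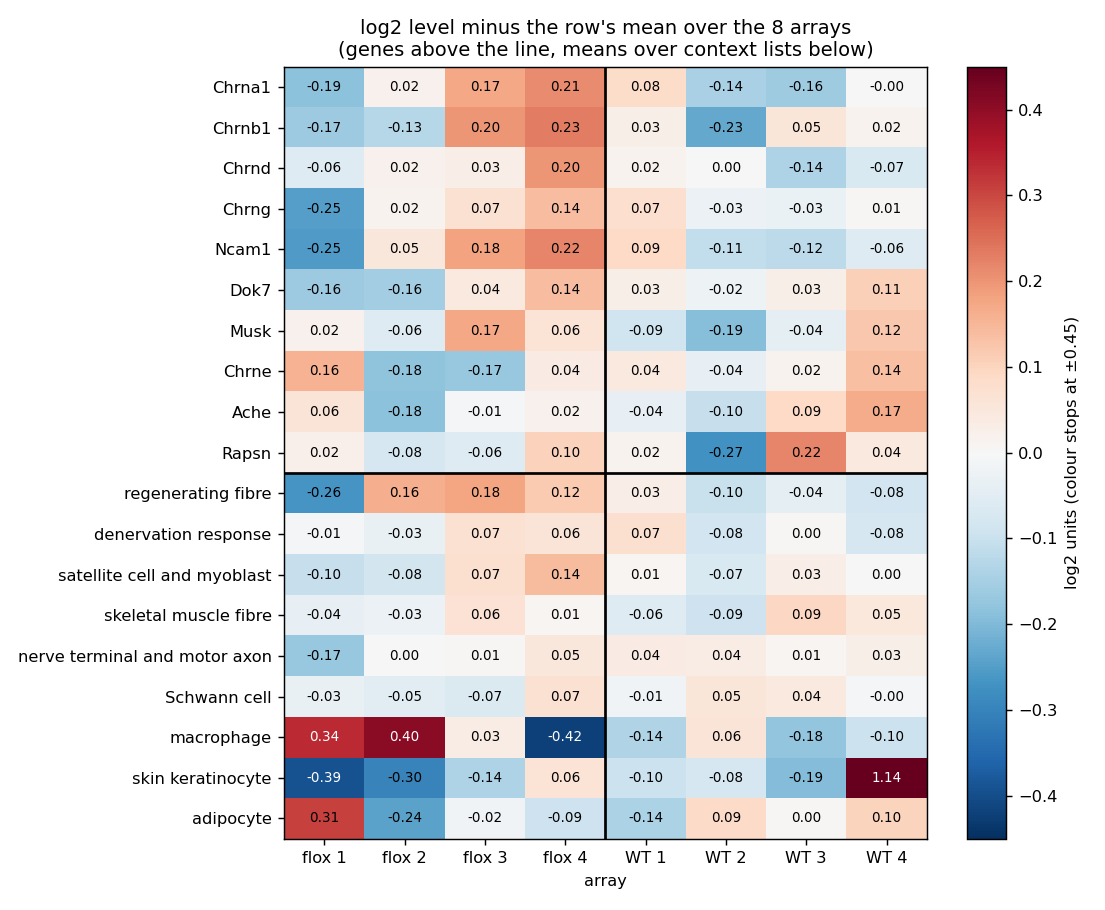
Log2 level on each array minus the row's mean over the 8 arrays, for the 10 genes (above the line) and the means of context gene lists (below), with flox arrays left and WT arrays right of the vertical line. Chrna1, Chrng and Ncam1 are lowest on flox array 1 and highest on flox array 4, Chrne is highest on flox array 1 at 0.16, and the skin list on WT array 4, at 1.14, lies beyond the colour scale.

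The genes whose pattern over the 8 arrays was most like that of Chrng were Olfr550 (r = 0.980), B3gnt4 (0.977), Dmbx1 (0.975), Olfr1394 (0.974) and Gm15760 (0.971), out of 15006. All 5 were lowest on flox array 1, where Olfr550 was at 6.63 against 6.94 to 7.17 on the other arrays. Without flox array 1 their r was 0.885 to 0.914. Ncam1 had the rank of 114 and Chrna1 of 452 in that order. The genes most like Chrne were Gfra4 (r = 0.962), Tirap (0.939), Mapk8 (0.934), Tafa3 (0.930) and Kcnq5 (0.919), with r of 0.891 to 0.958 without flox array 1. Ache had rank 234. With 8 arrays and so many genes, high values of r are found for any pattern, and the order is a description.

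Other genes of the synapse pathway, from agrin signalling to the synaptic matrix, were read from a list of 40, of which 36 were tested. Their median difference was 0.02, against -0.0025 over all genes, with 23 higher and 13 lower. Without single arrays the median was 0.0041 (flox array 1) to 0.02. In limma 0 passed the adjusted threshold and 3 had an unadjusted p under 0.05, where 3.79% of all genes had one. Without flox array 4 it was 5, where 20% of all genes had such a p, and without each other array it was 1 or 2. The groups were apart for 2 of the 36, where 1.97% of all genes had groups apart. Nid2, a basement membrane protein, was at 8.66, 8.60, 8.57 and 8.47 on the flox arrays and 8.42, 8.35, 8.43 and 8.45 on the WT arrays, all flox arrays above all WT arrays (0.16, SE 0.06; limma adjusted p 0.912). Macf1, a linker of actin and microtubules, was the other gene with groups apart (0.12, SE 0.05), and the kinase gene Fyn differed by 0.22 (SE 0.09), with overlap on flox array 4 (both limma adjusted p 0.912).

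Many genes of the nerve itself could not be tested. Of 12 nerve terminal and motor axon genes 7 were tested, and Nefl, Nefm, Snap25, Chat and Slc5a7 lay below the filter on dim rows at 6.35, with mean levels of 5.10 to 6.16. Of the 7, 1 was higher and 6 were lower, with a median of -0.04. Nefh, a neurofilament gene of large axons, had the smallest p (-0.15, SE 0.06; limma adjusted p 0.912, unadjusted 0.0267), followed by Syt1 (-0.15, SE 0.07) and Stmn2 (0.11, SE 0.09). The mean of this list was -0.17 on flox array 1 and between 0.0020 and 0.05 on the other 7 arrays. Without flox array 1, 3 were higher and 4 lower, and the median without single arrays ran from -0.08 (WT array 3) to -0.02 (flox array 1). Schwann cell genes, of which 8 of 12 were tested, had a median of -0.02, with 3 higher and 5 lower. Without flox array 4 the median was -0.07 and without flox array 3 it was -0.0028. The myelin gene Mag had the smallest p there (-0.22, SE 0.07; limma adjusted p 0.912), followed by Cnp (0.11, SE 0.07) and S100b (-0.12, SE 0.08). In each of these lists 1 gene had an unadjusted p under 0.05, where 3.79% of all genes had one; without flox array 4 it was 2 nerve genes and 3 Schwann cell genes, beside 20% of all genes. With the filter at the 50th percentile 1 nerve gene was left, higher in flox (0.11). Of the Schwann cell genes 5 were left, with a median of 0.0095, and Nefh and Mag were not kept. Dim rows were low on flox array 1 as a group. The median of rows below the 25th percentile was -0.09 there, and that of olfactory receptor genes -0.21. The part of low signal in these lists was not tested.

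Genes that respond to loss of the nerve were higher for 9 and lower for 3 of 12 tested, with a median of 0.07 and 0 at an unadjusted p under 0.05. Without flox array 1 they were 6 and 6, with a median of 0.01 and 2 at an unadjusted p under 0.05, where 3.84% of all genes had one. Runx1, a transcription factor induced in denervated muscle, differed by 0.10 (SE 0.07), the neonatal myosin Myh8 by 0.10 (SE 0.09) and the ubiquitin ligase gene Fbxo32 by -0.10 (SE 0.10). Regenerating fibre genes were higher for 7 of 10, with a median of 0.08, and for 10 of 10 without flox array 1, with a median of 0.20. With all arrays 1 gene of this list had an unadjusted p under 0.05, Igfn1 (0.22, SE 0.09; limma adjusted p 0.912), and in the fit without flox array 1 there were 4, beside 3.79% and 3.84% of all genes, with 0 past the adjusted threshold either way. Csrp3, a stress-responsive fibre gene, had the next smallest p (0.43, SE 0.24). The lowest median of this list, 0.03, came without flox array 3. Flox array 1 had the lowest mean of the regenerating fibre genes, -0.26, so leaving it out raises their differences. The counts without it are a description with no test. Myh3 and Myh8 are in both the regenerating fibre list and the list of genes that respond to loss of the nerve.

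Satellite cell and myoblast genes were higher for 5 and lower for 5 of 10, with Myf5 (0.12, SE 0.07), Pax3 (-0.09, SE 0.07) and Chodl (0.09, SE 0.07) leading; 8 were higher and 2 lower without flox array 1, and 4 higher and 6 lower without flox array 4. Mature fibre genes were higher for 4 and lower for 8 of 12, with a median of -0.0071, and leaving out single arrays gave -0.02 to 0.01. The leading genes were Actn3 (-0.07, SE 0.06), Myh2 (0.18, SE 0.23) and Myh4 (-0.04, SE 0.06). Of other cell types, macrophage genes had a median of 0.21, with 9 of 10 higher, led by Cd14 (0.24, SE 0.09), Ctss (0.25, SE 0.11) and Cd68 (0.20, SE 0.11). Leaving out flox array 2 gave a median of 0.11 and leaving out flox array 1 gave 0.13, with 7 of 10 higher. It was 0.32 without flox array 4, where 8 of the 10 had an unadjusted p under 0.05, beside 20% of all genes. With all arrays that count was 1, beside 3.79% of all genes. Flox array 4 had the lowest mean of the macrophage genes, -0.42, so leaving it out raises their differences. The count without it is a description with no test. Skin keratinocyte genes had a median of -0.36, with 5 of 5 lower, and WT array 4 was at 1.14; without it the median was -0.09. Their leading genes were Krt15 (-0.22, SE 0.14), Krt10 (-0.75, SE 0.48) and Sfn (-0.16, SE 0.10). Adipocyte genes had a median of -0.02 over 4 genes, Plin1, Cidec, Fabp4 and Adipoq, of -0.15 without flox array 1 and of 0.05 without flox array 2. The genes of these 5 lists had limma adjusted p-values of at least 0.912.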

How the data were processed

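Whole-muscle RNA from 4 flox and 4 WT samples was hybridised to Affymetrix Mouse Gene 1.0 ST arrays. The authors deposited probeset intensity values on a linear scale (5.81 to 19080), made with RMA in Affymetrix Power Tools per the submitters' processing notes; tool versions and genome build: not given in the sources used here. RMA makes the arrays' distributions alike, so a shift shared by most genes would not be seen, and it compresses changes of dim rows. Precision is limited by the number of arrays.

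Values were put on the log2 scale with no pseudocount. Of 24922 rows, 21425 had 1 gene symbol in the platform annotation, 1399 several and 2098 none; only the first were named. Gene identifiers of 21347 of them matched RefSeq (GRCm38.p6), and 0 symbols changed. Rows with a mean below the 25th percentile (6.35) were left out and the brightest row kept per gene, leaving 15007 genes. The genotype comparison used limma 3.58.1 (R 4.3.3) on group alone, with Benjamini-Hochberg adjustment over all genes and a threshold of 0.05. On simulated data the fit recovered 11 of 67 changes of 1.25-fold, 59 of 67 of 1.5-fold and 63 of 66 of 2-fold. Most changes of 1.25-fold were thus missed, and smaller ones, such as the members' largest of 1.08-fold, were not simulated. Chrng minus Chrne and the correlations used exact two-sided permutation tests (scipy 1.17.1), the latter adjusted over 45 pairs. The correlations had been planned as a description with no p-value. Genes named were the 10 members, up to 3 per context list by smallest p, and the 5 most like Chrng and Chrne. Members, lists and the sets of dim genes were chosen with earlier results of these data known. The promoter table matched 7 of the 10 members. Alternatives covered the filter, normalization, pseudocount, row choice, prior, array weights, block and each array left out.

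Samples with the same number deviated from their group means with correlations of -0.0017 to 0.352, so the numbers were not taken to pair samples.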

Additional observations from a re-analysis of the deposited data

Results flagged for a closer look

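Chrnb1 on WT array 2 lay apart from the other WT arrays, at a log2 level of 9.75 against 10.00 to 10.04. Its gap to the nearest array was 0.868 of the group's range, above Dixon's 95% critical value for 4 samples. Of 22 groups checked, 1 was flagged, and chance flags about 1 in 20. Flox array 1, with a gap of 0.786 of the range for Chrng minus Chrne, did not reach that value.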

How the results depend on the processing

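Over 180 refits of the 10 genes, 173 kept the sign of the difference, none passed 0.05 adjusted over all genes, and 7, all without 1 array, turned the sign: Chrng (range -0.060 to 0.069 without each array) and Rapsn (-0.094 to 0.070). The filters, row choice, prior and block leave each member's difference as it is, so its sign cannot turn there. The count of signs kept includes those refits. Chrng minus Chrne ranged from -0.0014 (without flox replicate 3, where it turned sign) to 0.21 without single arrays, and was 0.06 to 0.07 under the other normalizations and the pseudocount of 50. With the replicate number as a block it was 0.07 (exact permutation p = 0.75, smallest possible 0.125). Median centring and the block cannot change this difference. Over all genes, 0 passed in limma; leaving out arrays gave 0 to 2, with 2 without flox replicate 4. Genes at an unadjusted p under 0.05 numbered 569, and 3003 without flox replicate 4, 246 without flox replicate 2, 276 without WT replicate 1, 344 with the filter at the 50th percentile, 1932 with array weights and 694 with the block. The block changed no call. The cause of these changes was not tested. Without flox replicate 1 the adjusted p of all members was 0.9998.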

Other observations

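By the number in the sample titles, Chrnb1 was higher on arrays 3 and 4 than on arrays 1 and 2 by 0.36 in flox and 0.14 in WT, while Chrna1 was higher there by 0.28 in flox and lower in WT (-0.05). Dok7 was higher on arrays 3 and 4 by 0.25 in flox and 0.06 in WT, and Rapsn by 0.05 in flox and 0.26 in WT. These splits of 2 against 2 arrays were not tested.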
